A study of Canis lupus familiaris with 12 samples.

Results

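Genes known to respond to glucocorticoids, the adrenal stress hormones, were followed in heart tissue of dogs that had degenerative mitral valve disease (DMVD), a condition of thickened, leaking mitral leaflets. The members were FKBP5, SGK1, CRISPLD2, PER1, TSC22D3, ZBTB16, KLF9 and NR3C1, listed for their known hormone response. They were chosen with earlier results of these data known. Each was matched to the gene names deposited for each tissue. A row was found for 7 of the 8 among 24223 genes. No row matched NR3C1, the glucocorticoid receptor itself, which was not analysed here. All 7 matched genes were tested by the authors in both tissues, so none was lost to a filter on low values.

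The study compared left ventricle from 2 dogs with DMVD with left ventricle from 4 normal control dogs, and mitral valve from 3 dogs with DMVD with mitral valve from 3 control dogs. Ventricle with DMVD was taken from a Jack Russell Terrier aged 5 years and a Pomeranian aged 9 years, and control ventricle from an 8-year-old Beagle and 3 Hound mixes, each aged 3 years. The DMVD valves came from the Pomeranian and from Beagles aged 16 and 17 years, and the control valves from the 8-year-old Beagle and 2 of the Hound mixes. The numbers in the titles, with breed and age, tie the 12 libraries to 8 dogs. Drug treatment and time of sampling are not among the labels used here. Diagnosis cannot be told apart from breed and age in either tissue.

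Glucocorticoids bind a receptor held in the cytoplasm by the chaperone Hsp90 and its partners. The occupied receptor moves to the nucleus and switches on genes that restrain inflammation, alter salt transport and fuel use, and feed back on the receptor itself. Heart muscle cells, fibroblasts, endothelial cells and leukocytes all carry the receptor, and several of its target genes also answer to other stress signals. FKBP5 encodes an Hsp90 co-chaperone that lowers the receptor's affinity for hormone. SGK1 encodes the serum- and glucocorticoid-regulated kinase, which keeps sodium channels and transporters at the cell surface. TSC22D3 encodes GILZ, a leucine-zipper protein that binds and restrains NF-kappaB and AP-1. PER1 is a repressor of the circadian clock, ZBTB16 encodes the zinc-finger repressor PLZF, KLF9 is a Krüppel-like transcription factor, and CRISPLD2 encodes a secreted protein known in humans to be induced in airway smooth muscle.

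The tables hold 1 value per group, read as FPKM, which scales the fragments of a gene by its length and by the size of the library. No spread between dogs can be given, and library depth is unknown. Every log2 fold change is DMVD over control. Each ± gives a standard error (SE), obtained from the statistic the authors deposited. A gene was called at an adjusted p under 0.05, by Benjamini-Hochberg over all genes tested in that tissue. Over genes averaging 1 FPKM or more, the median log2 fold change was -0.02 in the ventricle and 0.04 in the valve. In the ventricle the cardiomyocyte markers other than MYH7 summed to 34513 FPKM in DMVD and 38915 FPKM in control. MYH7 carries the status HIDATA in the authors' deposited table, which Cuffdiff gives to loci with too many fragments to quantify, so its listed 0 in control is no measured absence. Valve samples held fibroblast and valve interstitial markers at 2963 FPKM in DMVD and 2237 FPKM in control. They also held cardiomyocyte markers, at 14325 FPKM in DMVD and 26227 FPKM in control with MYH7 included. Without MYH7 the sums were 13046 FPKM in DMVD valve and 23159 FPKM in control valve.

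In the left ventricle FKBP5, SGK1 and CRISPLD2 rose in DMVD, none of the 7 genes fell and 4 did not pass. The background was 3.08% of 13788 tested genes called in either direction and 1.92% called higher, with 1.16% called lower. At an unadjusted p under 0.05 the same 3 were higher and none was lower, against 5.74% of all genes higher and 11.3% in either direction. The median log2 fold change of the 7 was 0.82, against -0.04 over all tested genes. Of the 7, 6 had the higher value in DMVD, against 46.8% of all tested genes. The list was chosen with earlier results of these data known, so these contrasts with the background are no independent test. In bulk tissue, a change in the number of cells that express a gene and a change in its RNA per cell cannot be told apart.

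FKBP5 (ENSCAFG00000001343, chromosome 12, 4727912 to 4827214, CanFam3.1) had 28.7 FPKM in DMVD ventricle and 7.63 FPKM in control ventricle. The DMVD value was 3.76-fold the control value, a log2 fold change of 1.91 ± 0.45 in the authors' test (adjusted p = 0.00162, 95% interval of the fold 2.04 to 6.91). It was the call with the smallest p among the 7, at rank 175 of the 13788 genes. An entry for the small RNA U6 lies within the FKBP5 interval, and no other row overlaps any of the 7 genes.

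SGK1 (ENSCAFG00000000217, chromosome 1, 27085980 to 27196521) had 24.9 FPKM in DMVD ventricle and 5.33 FPKM in control ventricle. Its log2 fold change of 2.23 ± 0.60 was the largest of the 7, and its SE was too (the authors' test, adjusted p = 0.0103, 95% interval of the fold 2.08 to 10.5). CRISPLD2 (ENSCAFG00000019943, chromosome 5, 67643124 to 67707753) had 10.2 FPKM in DMVD ventricle and 3.49 FPKM in control ventricle, the lowest control value of the 7. It rose by 1.55 ± 0.42 on the log2 scale (the authors' test, adjusted p = 0.0121, 95% interval of the fold 1.65 to 5.20).

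Stricter settings ended most of these calls. With the Benjamini-Yekutieli adjustment of the authors' p-values FKBP5 passed (adjusted p = 0.0164), and SGK1 and CRISPLD2 did not (adjusted p = 0.104 and 0.122). With every SE raised by 25%, 0 of the 7 passed, FKBP5 having an adjusted p of 0.0504, SGK1 of 0.150 and CRISPLD2 of 0.162 from the authors' statistics.

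The transcriptional regulators among the members did not pass in the ventricle. PER1 (ENSCAFG00000016984, chromosome 5, 32957138 to 32968490) had 11.5 FPKM in DMVD ventricle and 6.52 FPKM in control ventricle, a log2 fold change of 0.82 ± 0.46 (the authors' test, adjusted p = 0.540). TSC22D3 (ENSCAFG00000029920, chromosome X, 81232953 to 81296557) had 13.0 FPKM in DMVD and 8.10 FPKM in control, a log2 fold change of 0.69 ± 0.42. The 95% intervals of both ran from just under no difference to over 2.8-fold: 0.944 to 3.28 for PER1 and 0.912 to 2.84 for TSC22D3.

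ZBTB16 (ENSCAFG00000013538, chromosome 5, 19088034 to 19267628) had 9.95 FPKM in DMVD ventricle and 8.07 FPKM in control ventricle, a log2 fold change of 0.30 ± 0.43. KLF9 (ENSCAFG00000001867, chromosome 1, 87109450 to 87140895) was the member with a lower DMVD value, 3.39 FPKM against 5.05 FPKM in control, a log2 fold change of -0.57 ± 0.56. Its interval of the fold, 0.315 to 1.44, covers both a decrease and an increase. At their own SE, the 7 genes needed a difference of 2.50-fold to 3.72-fold to be called in the ventricle, so smaller differences were not detectable there.

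**Figure D1:**
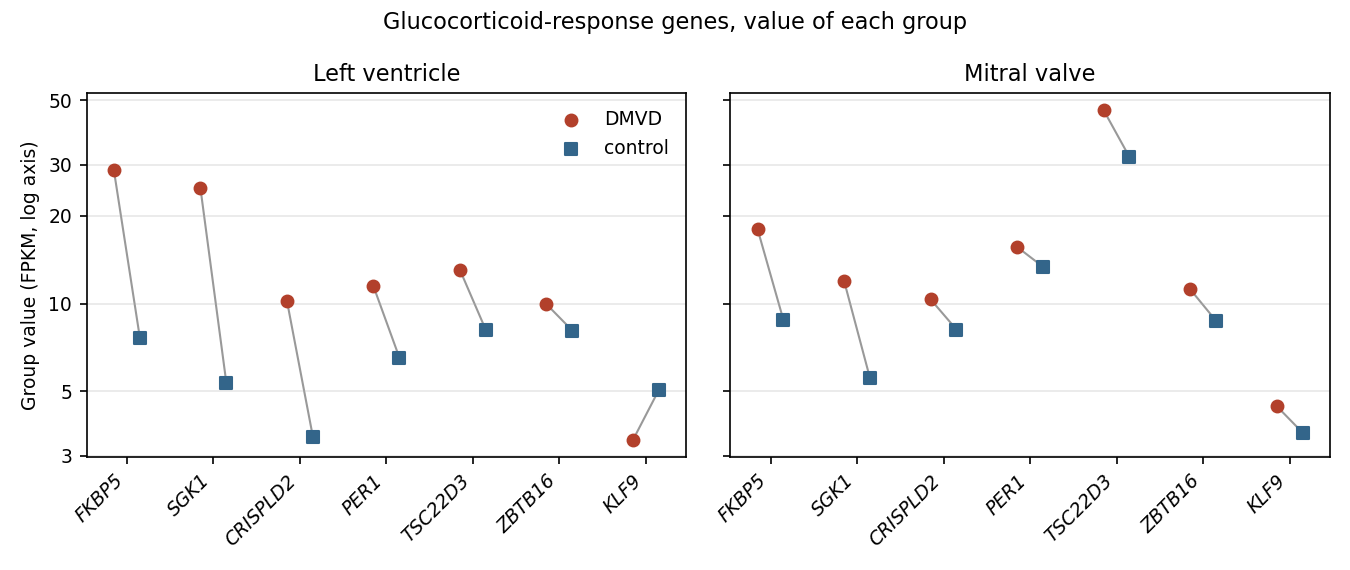
Value of each group for the 7 glucocorticoid-response genes (FPKM, log axis), with DMVD as red circles and control as blue squares in left ventricle and mitral valve. Lines join the values of a gene; there is 1 value per group and so no error bar. FKBP5, SGK1 and CRISPLD2 have the steepest lines in the ventricle, KLF9 slopes the other way there, and TSC22D3 has the highest values in the valve.

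Markers of several cell types were called in the ventricle too, in both directions, against 3.08% of all tested genes called. Of the neutrophil markers 5 of 5 tested rose, and the 6 matched markers summed to 378 FPKM in DMVD and 14.2 FPKM in control, with none at 0 in either group. Of 5 tested erythroid markers 4 rose, and the 7 matched markers summed to 3606 FPKM in DMVD and 62.7 FPKM in control, with KLF1 listed at 0 in control. Of 7 tested macrophage markers 1 rose, with sums of 76.9 FPKM in DMVD and 31.4 FPKM in control. The T and B cell markers summed to 4.58 FPKM in DMVD and 2.34 FPKM in control, and 0 of 2 tested passed. Endothelial markers summed to 178 FPKM in DMVD and 80.1 FPKM in control, with 2 of 8 tested higher. Adipocyte markers went the other way: both tested, PLIN1 (-4.48 ± 0.79) and CIDEC (-2.86 ± 0.80), fell, and the 3 matched summed to 0.638 FPKM in DMVD and 8.02 FPKM in control. Of 8 tested cardiomyocyte markers 1 rose and 7 did not pass, with a median log2 fold change of -0.22. The gene that rose was NPPA, with 48.0 FPKM in DMVD and 12.4 FPKM in control (1.95 ± 0.53). Fibroblast and valve interstitial markers summed to 392 FPKM in DMVD and 371 FPKM in control with 1 of 7 tested higher. Smooth muscle markers summed to 2821 FPKM in DMVD and 1858 FPKM in control, with 0 of 6 called. Most of that sum was DES, with 2566 FPKM in DMVD and 1704 FPKM in control. Of the 6 tested, 3 had the higher value in DMVD. Leukocytes express FKBP5, TSC22D3 and SGK1 as well. The part of these cells in the ventricle result was not tested.

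In the mitral valve 0 of the 7 genes passed in the authors' test after adjustment, against a background of 0.419% of 14810 tested genes called in either direction, 0.311% higher and 0.108% lower. All 7 had the higher value in DMVD, against 54.9% of all tested genes. Their median log2 fold change was 0.36, against 0.05 over all tested genes. Here too the list was chosen with earlier results known, so the contrast is no independent test. At an unadjusted p under 0.05, SGK1 and FKBP5 were higher, against 2.73% of all tested genes higher and 4.2% in either direction at that level (p = 0.0438 and 0.0482 in the authors' deposited table).

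FKBP5 had 18.0 FPKM in DMVD valve and 8.76 FPKM in control valve, a log2 fold change of 1.04 ± 0.53. SGK1 had 11.98 FPKM in DMVD valve and 5.54 FPKM in control valve, 1.11 ± 0.55 on the log2 scale. Both adjusted p-values were 0.9999, and the intervals of the fold ran from 1.01 to 4.21 for FKBP5 and from 1.02 to 4.57 for SGK1. The other 5 genes had log2 fold changes between 0.23 and 0.54.

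CRISPLD2 had 10.3 FPKM in DMVD valve and 8.14 FPKM in control valve, a log2 fold change of 0.35 ± 0.47. TSC22D3 had 46.3 FPKM in DMVD valve and 31.9 FPKM in control valve (0.54 ± 0.50), the highest level of the 7 in both valve groups. PER1 had 15.7 FPKM in DMVD valve and 13.4 FPKM in control valve (0.23 ± 0.51). These 3 differences are each close to or smaller than their own SE.

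ZBTB16 had 11.2 FPKM in DMVD valve and 8.72 FPKM in control valve (0.36 ± 0.53). KLF9 had 4.44 FPKM in DMVD valve and 3.60 FPKM in control valve (0.30 ± 0.76), the lowest level of the 7 in both valve groups. Calls in the valve needed a difference of 3.36-fold to 7.15-fold at the SE of these genes, and 62 genes in all were called, so the missing calls do not show that the members were alike in the groups.

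Neutrophil, erythroid, macrophage, endothelial and cardiomyocyte markers each had 1 gene called in the valve, against 0.419% of all tested genes called. Neutrophil markers summed to 43.3 FPKM in DMVD and 8.57 FPKM in control, with CXCR2 listed at 0 in control, and 1 of 4 tested rose. Erythroid markers summed to 609 FPKM in DMVD and 36.1 FPKM in control, with 1 of 4 tested higher. Macrophage markers summed to 220 FPKM in DMVD and 70.1 FPKM in control, with 1 of 7 tested higher. T and B cell markers summed to 6.24 FPKM in DMVD and 2.33 FPKM in control and endothelial markers to 115 FPKM in DMVD and 50.9 FPKM in control, with 0 of 4 and 1 of 8 tested called. Of 9 tested cardiomyocyte markers 1 fell, 0 rose and 8 did not pass. It was the ventricular light chain gene MYL3, which fell by 5.19 ± 0.68 on the log2 scale, with 36.6 FPKM in DMVD valve and 1335 FPKM in control valve. ACTC1 had 0.18 ± 2.13 and NPPA -0.05 ± 1.93. ACTC1 was the 1 gene of the 9 with the higher value in DMVD, against 54.9% of all tested genes. The median log2 fold change of the 9 was -1.11, against 0.05 over all tested genes. Adipocyte markers summed to 12.1 FPKM in DMVD and 43.1 FPKM in control. Both tested were lower at an unadjusted p under 0.05, against 1.47% of all tested genes, but did not pass. Smooth muscle markers summed to 2889 FPKM in DMVD and 2156 FPKM in control, and 0 of 6 tested passed, nor did any of 7 fibroblast markers. Most of the smooth muscle sum came from 2 genes that moved in opposite directions. DES had 1188 FPKM in DMVD and 1377 FPKM in control, and TAGLN had 1572 FPKM in DMVD and 699 FPKM in control. The part of these transcripts in the members' valve values was not tested.

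**Figure D2:**
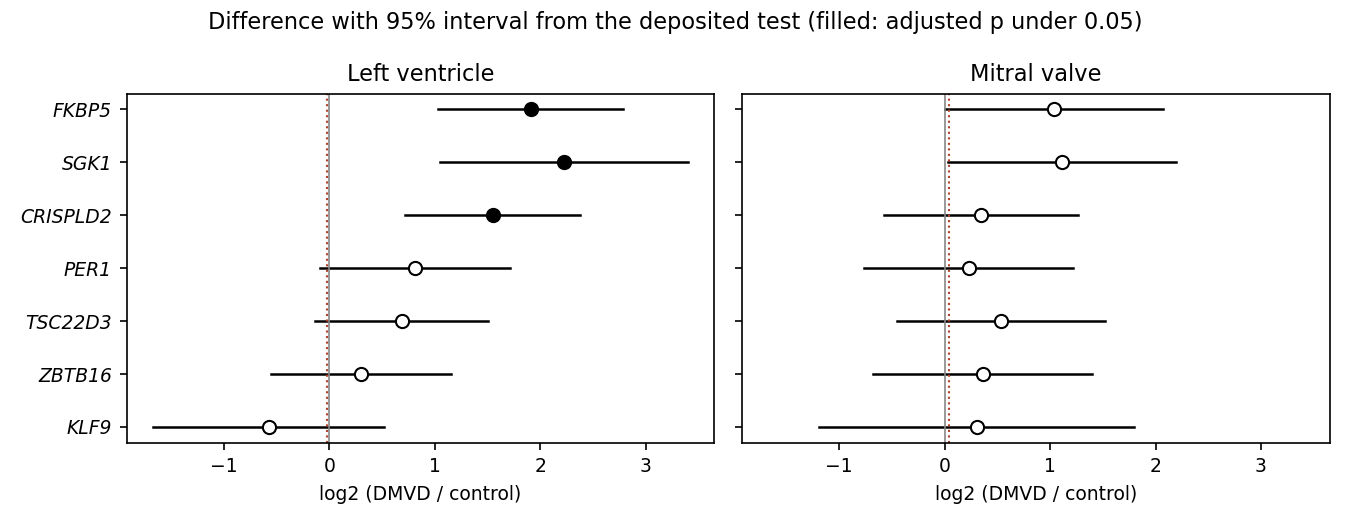
Log2 fold change of DMVD over control for each glucocorticoid-response gene in left ventricle and mitral valve, with bars for the 95% interval from the deposited test and filled points for an adjusted p under 0.05. The dotted red line is the median of genes averaging 1 FPKM or more. The 3 filled points are FKBP5, SGK1 and CRISPLD2 in the ventricle; in the valve the bars of FKBP5 and SGK1 end just above 0 and the other 5 cross it.

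The difference between the tissues was tested gene by gene as the valve effect minus the ventricle effect, on the log2 scale. None of the 7 passed, against a background of 0.107% of 13099 genes called, and none had an unadjusted p under 0.05, against 2.66% of all genes. CRISPLD2 came closest, with -1.21 ± 0.63 from the authors' statistics (unadjusted p = 0.0564, adjusted p = 0.99995), on log2 fold changes of 0.35 in the valve and 1.55 in the ventricle. SGK1 had -1.11 ± 0.81 and FKBP5 -0.87 ± 0.69. The smallest differences belonged to ZBTB16 (0.06 ± 0.69) and TSC22D3 (-0.15 ± 0.65), whose 95% intervals still reached from -1.29 to 1.40 and from -1.43 to 1.13. KLF9, with opposite signs in the tissues, had 0.88 ± 0.95. The call of the 3 genes in the ventricle and not in the valve is therefore not a shown difference between the tissues. The test takes the tissues as independent, while 1 DMVD dog and 3 control dogs gave both.

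The order of levels among the members differed between groups on the FPKM scale, which corrects for gene length. In DMVD ventricle FKBP5 and SGK1 came first and held 28.2% and 24.5% of the summed level of the 7. In control ventricle TSC22D3 and ZBTB16 came first, with 18.3% each, and FKBP5 held 17.3% and SGK1 12.1%. The 7 summed to 102 FPKM in DMVD ventricle and 44.2 FPKM in control ventricle. In the valve TSC22D3 held 39.2% of the sum in DMVD and 39.8% in control, and the sums were 118 FPKM in DMVD and 80.0 FPKM in control. KLF9 came last in DMVD ventricle and in both valve groups. Without values per dog, no neighbours in these orders can be said to differ.

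Among all tested genes of the ventricle, the log2 fold changes of SGK1, FKBP5 and CRISPLD2 lay at percentiles 97.8, 97.1 and 95.9. PER1 lay at 87.9, TSC22D3 at 85.0, ZBTB16 at 71.1 and KLF9 at 20.6. In the valve SGK1 lay at percentile 93.3, FKBP5 at 92.8 and TSC22D3 at 83.6, and the others lay between 67.0 for PER1 and 75.9 for ZBTB16. FKBP5 and SGK1 were thus the upper pair of the 7 in both tissues, although the tissues share dogs.

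**Figure D3:**
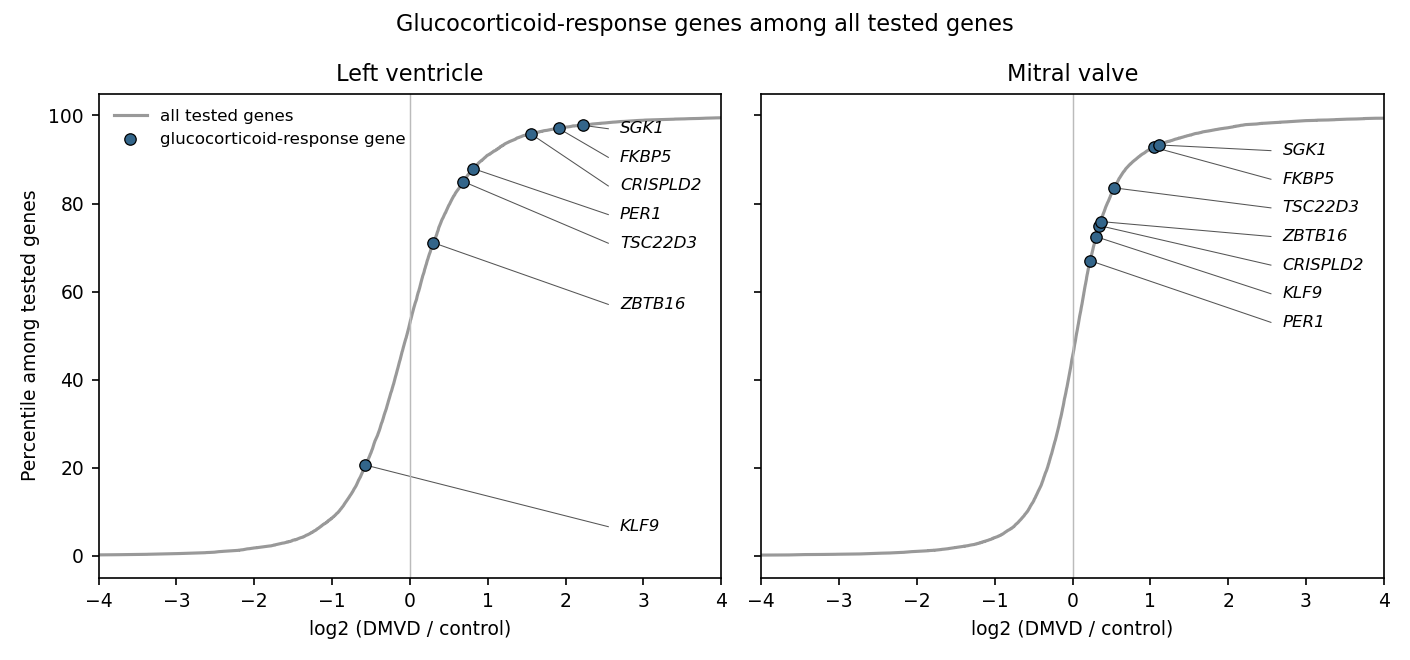
Percentile of each glucocorticoid-response gene (blue points) on the cumulative curve of log2 fold changes, DMVD over control, of all tested genes (grey), by tissue. The curve continues beyond the plotted range of fold changes. SGK1 and FKBP5 sit highest in both panels, at percentiles 97.8 and 97.1 in the ventricle and 93.3 and 92.8 in the valve, and KLF9 sits at 20.6 in the ventricle.

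Among the receptor's chaperones and cofactors no gene was called. Of 19 tested, 0 passed in the authors' test in either tissue after adjustment, a count near the background of 3.08% in the ventricle and 0.419% in the valve. At an unadjusted p under 0.05, 3 were lower in the ventricle and none in the valve, against 5.51% and 1.47% of all tested genes lower. Their median log2 fold change was -0.26 in the ventricle and -0.15 in the valve. HSP90AA1, the inducible form of the chaperone that holds the receptor, had 199 FPKM in DMVD ventricle and 188 FPKM in control ventricle (0.08 ± 0.50).

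FKBP4 encodes FKBP52, the co-chaperone that competes with the FKBP5 product and favours receptor activity. It had 17.2 FPKM in DMVD ventricle and 30.9 FPKM in control ventricle, a log2 fold change of -0.85 ± 0.42 that did not pass in the authors' test (adjusted p = 0.405). The ratio of FKBP5 to FKBP4 was 1.67 in DMVD ventricle and 0.247 in control ventricle, so the order of the pair was reversed between the groups. In the valve the ratio was 0.805 in DMVD and 0.303 in control, with FKBP4 at 22.4 FPKM in DMVD and 28.9 FPKM in control. The ratio itself was not tested.

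Of the steroid receptors and hormone-converting enzymes, 4 of 9 matched a row and 2 were tested, H6PD and SRD5A1. Neither passed in either tissue, against 3.08% of all tested genes called in the ventricle and 0.419% in the valve. H6PD supplies the cofactor with which 11-beta-hydroxysteroid dehydrogenase makes active hormone in tissue. It had 5.33 FPKM in DMVD ventricle and 9.42 FPKM in control ventricle (-0.82 ± 0.43). The mineralocorticoid receptor gene and both 11-beta-hydroxysteroid dehydrogenase genes matched no row and were not analysed here.

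A list of 40 further genes known to be raised by glucocorticoids had 32 tested members. In the ventricle 10 rose and 0 fell, against 1.92% of all tested genes called higher and 1.16% called lower. The other 22 did not pass, and the list median was 1.19 on the log2 scale. The metallothioneins MT2 (7.07 ± 0.61) and MT1 (4.59 ± 0.58), the mTOR inhibitor DDIT4 (3.53 ± 0.54) and the mRNA-destabilising protein ZFP36 (2.97 ± 0.59) had the smallest p. The others called, listed after their values were seen, were NFKBIA, IRS2, IL1R2, ERRFI1, MAOA and THBD, with log2 fold changes between 1.44 and 2.10. Metals, hypoxia, insulin and cytokines are known to induce several of these genes as well. In the valve THBD, the thrombin receptor of endothelium (2.34 ± 0.54), and MT2 (2.86 ± 0.68) rose. The other 30 did not pass, and 0.311% of all tested genes were called higher. The list median was 0.44 there. Under either the Benjamini-Yekutieli adjustment or the raised SE, 5 genes of the list passed in the ventricle and 0 in the valve.

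Inflammatory genes known to be lowered by glucocorticoids had calls in both directions in the ventricle. Of 10 tested in the ventricle 3 rose, the chemokines IL8 (7.08 ± 0.67) and CCL2 (4.29 ± 0.51) and the adhesion molecule ICAM1 (2.38 ± 0.47). The background was 1.92% of all tested genes called higher and 1.16% called lower. NOS2, the inducible nitric oxide synthase, fell by 4.45 ± 1.21, with 0.0519 FPKM in DMVD and 1.13 FPKM in control, and 6 did not pass. With 1 FPKM added to both groups, NOS2 had a log2 fold change of -1.02. IL8, with 0.435 FPKM in control ventricle, had 5.38 in that setting. In the valve IL8 rose (4.19 ± 0.95) and 9 did not pass, against 0.311% of all tested genes called higher. IL8 had 0.280 FPKM in control valve and a log2 fold change of 2.26 with 1 FPKM added. The rise of IL8 in the valve was not called with the Benjamini-Yekutieli adjustment or the raised SE. In the ventricle 3 genes of the list were called under each of these settings. The list medians were 2.65 in the ventricle and 1.39 in the valve.

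The clock genes around PER1 were mixed in the ventricle. Of 20 tested, BHLHE40, a repressor of clock-driven transcription, rose by 1.68 ± 0.42 and ARNTL, the partner of CLOCK, by 1.88 ± 0.58, while PER3 fell by 1.91 ± 0.49 (the authors' test, adjusted p = 0.00623) and 17 did not pass, against 3.08% of all tested genes called. The 3 period genes had different values: PER1 had 11.5 FPKM in DMVD and 6.52 FPKM in control, PER2 had 1.06 FPKM in DMVD and 1.80 FPKM in control, and PER3 had 0.450 FPKM in DMVD and 1.69 FPKM in control. The ratio of PER1 to PER3 was 25.5 in DMVD ventricle and 3.86 in control ventricle. With 1 FPKM added to both groups, PER3 had a log2 fold change of -0.89. In the valve 0 of the 20 passed, against 0.419% of all tested genes called. None had an unadjusted p under 0.05 there, against 4.2% of all tested genes. PER3 had 3.87 FPKM in DMVD valve and 4.13 FPKM in control valve. With the Benjamini-Yekutieli adjustment 1 clock gene was called in the ventricle, and with the raised SE 0 were.

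Of the partners and targets of SGK1, 1 of 10 tested rose in the ventricle, none fell and 9 did not pass, against 1.92% of all tested genes called higher. It was NDRG1, a substrate whose phosphorylation is used as a readout of the kinase, with 34.8 FPKM in DMVD and 11.95 FPKM in control (1.54 ± 0.42, the authors' test, adjusted p = 0.0120). It was not called with either stricter setting. SCNN1A, a subunit of the epithelial sodium channel, had 19.8 FPKM in DMVD and 19.6 FPKM in control (0.02 ± 0.47). None of the 10 passed in the valve, against 0.419% of all tested genes called. These are transcript levels and say nothing of kinase activity.

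Among 29 tested relatives of the members, KLF5 rose (1.82 ± 0.51) and PER3 fell in the ventricle, and 27 did not pass. These counts are near the background of 1.92% called higher and 1.16% called lower, and neither call held with the stricter settings. TSC22D1 and TSC22D4, relatives of TSC22D3, did not pass. TSC22D1 had 42.0 FPKM in DMVD ventricle and 30.3 FPKM in control ventricle (0.47 ± 0.50), and TSC22D4 had 17.5 FPKM in DMVD and 22.3 FPKM in control (-0.35 ± 0.48). CRISPLD1, the relative of CRISPLD2, had 0.0599 FPKM in DMVD ventricle and 0.0451 FPKM in control ventricle and was not tested there. In the valve CRISPLD1 had 7.55 FPKM in DMVD and 7.95 FPKM in control, near the level of CRISPLD2. None of the 29 passed in the valve, against 0.419% of all tested genes called. The median of the relatives was -0.16 in the ventricle and 0.23 in the valve, against 0.82 and 0.36 for the members.

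Immediate early genes, which respond within minutes to many stimuli including tissue handling, were partly higher too. Of 22 tested in the ventricle 10 rose and 0 fell, against 1.92% of all tested genes called higher and 1.16% called lower. The other 12 did not pass, and the median of the 21 with a log2 fold change was 1.60. The smallest p belonged to CTGF (2.78 ± 0.45), GADD45B (2.68 ± 0.46), JUNB (2.60 ± 0.45) and FOSL2 (3.01 ± 0.57), and FOSL1 is listed at 0 in control. With the Benjamini-Yekutieli adjustment 6 of them passed. In the valve 0 of 21 passed, against 0.419% of all tested genes called, and the median was 0.99. At an unadjusted p under 0.05, 5 were higher and none lower there, against 2.73% and 1.47% of all tested genes. Whether the same stimulus raised these genes and the members was not tested.

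**Figure D4:**
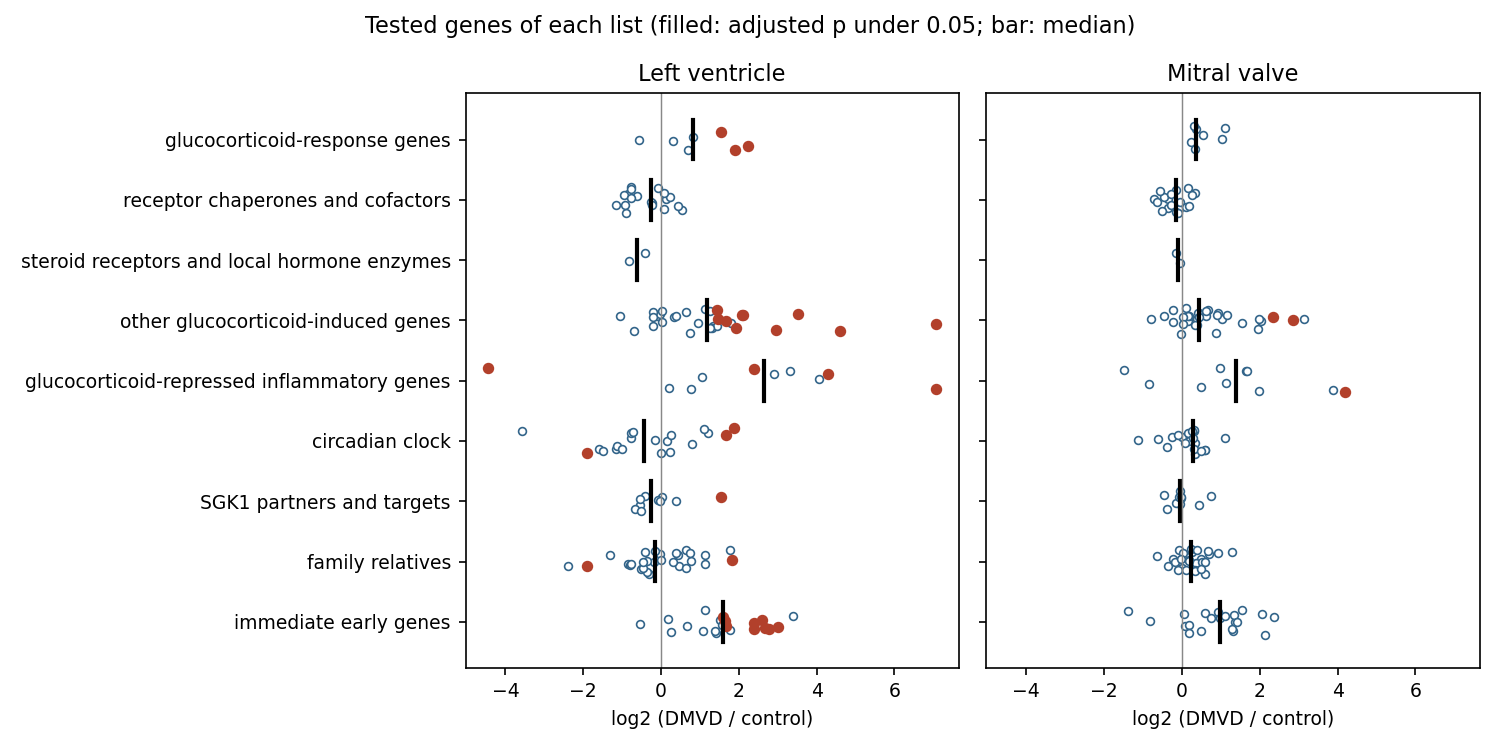
Log2 fold change, DMVD over control, of each tested gene in the glucocorticoid-response genes and 8 related lists, by tissue, with filled red points for an adjusted p under 0.05 and a black bar for the list median; points are spread vertically at random and genes listed at 0 in a group are left out. In the ventricle the medians of the induced, the inflammatory and the immediate early lists lie to the right, at 1.19, 2.65 and 1.60, and the chaperone list lies left of 0, at -0.26.

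The genes most like each called member were sought by the distance between pairs of log2 fold changes, ventricle and valve, over 4827 named genes averaging 5 FPKM or more in each tissue. Nearest to FKBP5 were ETS2 (1.84 in the ventricle and 1.02 in the valve), ACTN1 (1.89 and 0.95) and RHOJ (1.81 and 1.01). Nearest to SGK1 were IER5L (2.19 and 1.11), GFPT2 (2.35 and 1.15) and PMEPA1 (2.18 and 1.32). Nearest to CRISPLD2 were TRMT11 (1.58 and 0.35), PPP1R15A (1.51 and 0.38) and MSX1 (1.52 and 0.28). Unlike CRISPLD2, these were not called in the ventricle (the authors' test, adjusted p = 0.0523, 0.488 and 0.0828). The distance takes no account of the SE. The likeness rests on 4 group values per gene.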

How the data were processed

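RNA from left ventricle and mitral valve was sequenced in 12 libraries. Per the submitters' processing notes, reads were handled with cutadapt, Bowtie and TopHat on CanFam3.1; a quantification program is not named in these sources. One table per tissue, with 1 value per group, was deposited by the authors, read here as FPKM from a header laid out like a Cuffdiff gene table. The authors' deposited score, their test statistic, has the sign of DMVD minus control, and the authors' deposited p-value is unadjusted. Library depth cannot be read from group values.

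Log2 fold changes were recomputed from the group values with no value added. For 13451 ventricle and 14477 valve genes the deposited p and a two-sided normal p from the score differ by at most 2.84e-06, so the SE was taken as the fold change over the score. It is the authors' model error, not a spread between dogs. P-values were adjusted by Benjamini-Hochberg over 13788 and 14810 tested genes at 0.05. The tissue difference used a two-sided normal test. Steps were tested on simulated data. UniProt entry names were translated to symbols; 218 of 270 listed genes matched. Start positions are counted from 1.

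Named genes were the members, up to 4 called genes of each list with the smallest p, fixed receptor genes and relatives, and the 3 nearest to each called member. The members and lists were chosen with earlier results of these data known. Alternatives were a filter at 1 FPKM, centring, values of 1 or 0.1 FPKM added, the Benjamini-Yekutieli adjustment and an SE raised by 25%. Figures were drawn with matplotlib 3.10.9, and values were computed with scipy 1.17.1, pandas 2.3.3 and numpy 2.4.6 under Python 3.11.15.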

Additional observations from a re-analysis of the deposited data

How the results depend on the processing

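The 7 glucocorticoid-response genes kept their direction in both tissues under centring, the filter at 1 FPKM and the addition of 1 or 0.1 FPKM, and the 3 ventricle calls remained under the filter and the centring. With the Benjamini-Yekutieli adjustment, the ventricle had 1 member called and 221 genes in all, against 3 and 425, and the valve had 15 genes against 62. With every SE raised by 25%, the ventricle had 0 members and 178 genes called and the valve had 9 genes. Both settings are stricter by construction. Genes whose effect differed between the tissues numbered 14, and 13 and 15 under the filter and the centring; the other settings were not run for that count. No paired analysis was possible because the tables hold 1 value per group, and for the same reason leaving out replicates was not run. The depth of the libraries is unknown, so its limits on these genes could not be given.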

Other observations

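The genes next to the 7 members on the chromosome were read as well. Of 14 neighbours, the nearest tested and named row on each side, 0 were called in either tissue in the authors' test after adjustment. The background was 3.08% of all tested genes called in the ventricle and 0.419% in the valve. At an unadjusted p under 0.05, 1 neighbour passed in the ventricle and 0 in the valve, against 11.3% and 4.2% of all tested genes. These counts are near the background and do not set the neighbours apart from other genes. The neighbour that passed was TMEM2 beside KLF9, which was higher in DMVD ventricle while KLF9 was lower. Beside FKBP5, TEAD3 had a log2 fold change of 0.49 ± 0.68 and SRPK1 -0.19 ± 0.52 in the ventricle. Beside SGK1, SLC2A12 had -0.72 ± 0.48 and HBS1L 0.08 ± 0.43. Beside CRISPLD2, ZDHHC7 had -0.12 ± 0.41 and USP10 -0.07 ± 0.41. The neighbours of the 3 called genes thus had values between -0.72 and 0.49 in the ventricle, below those of the members beside them, which had 1.55 to 2.23. The members CRISPLD2, PER1 and ZBTB16 all lie on chromosome 5 and are not next to each other.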
